A study of Mus musculus with 10 samples.

Results

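This account covers the axon guidance ligands and receptors of mouse gingival epithelium: the semaphorins with their plexin and neuropilin receptors, the ephrins with the Eph receptors, the netrins with the Unc5 receptors, and the Slits with the Robos. Members were taken by symbol from the deposited gene table (Sema3 to Sema7 with a letter, Plxn, Epha and Ephb, Efna and Efnb, Nrp1 and Nrp2, Ntn, Unc5, Slit1 to Slit3 and Robo1 to Robo4, without the "os" names), which gave 68 genes of the 49164 with values. Of these, 49 passed the filter on low counts and were among the 14062 genes tested, and the other 19 are given further on by their counts. The epithelium was freed from the gum with Dispase, a protease, and its buccal side (facing the cheek) and palatal side (facing the palate) were sequenced apart. There were 5 libraries for each side, made from polyadenylated RNA with a stranded KAPA kit and read from 1 end on a NovaSeq. Both sides are described by tissue alone: the sources used here give no genotype, strain, age or microbial status of the mice, and the series' design text speaks of a comparison of pooled germ-free and specific-pathogen-free mice that is not analysed here. Nothing in the labels says that the libraries of a side came from separate animals, so the p-values refer to the spread among these libraries alone, which may be technical.

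Guidance molecules were first described as cues that attract or repel growing axons. A ligand that is secreted or carried on a neighbouring cell binds a receptor, which changes the actin skeleton and the adhesion of the receiving cell. The same families act outside the nervous system, in epithelial cell sorting and adhesion (ephrins and Eph receptors, B-type plexins), in vessel growth (neuropilins, Unc5b, Robo4) and in immune cell contact (Sema4a, Sema4d, Sema7a).

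Total counts were 29317011 to 37234192 in the buccal and 25868777 to 35583168 in the palatal libraries, so that 1 count was worth 0.0266 to 0.0398 CPM (counts scaled to the same library total, with edgeR's TMM factors). Levels are given as CPM in each library, and differences as log2 fold changes, palatal minus buccal, with their standard error (SE). A gene was called where edgeR's quasi-likelihood test gave a Benjamini-Hochberg adjusted p under 0.05 over all 14062 genes, with n = 5 libraries per side. "Higher" and "lower" mean higher or lower in the palatal libraries. Keratinocyte markers were the most abundant of the cell type markers in every library, with a summed level of the 12 markers of 136526 to 155576 CPM in buccal and 98408 to 107701 CPM in palatal libraries. Summed fibroblast markers were higher in every palatal library (104 to 115 CPM, against 21.2 to 25.9 CPM in buccal) and those of macrophages, Langerhans and dendritic cells were lower (65.7 to 86.2 CPM, against 166 to 275 CPM). Most of the palatal fibroblast sum was Dcn (mean 73.3 CPM, against 6.61 CPM in buccal), and 4 of the 8 fibroblast markers tested were not called.

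Of the 49 guidance genes tested, 28 passed the test (57.1%), against 38.9% of all genes tested. Of them 18 were higher in palatal libraries (36.7% of the members, 18.7% of all genes) and 10 were lower (20.4% of the members, 20.3% of all genes). A call with at least a 2-fold difference was made for 13 members (26.5%, against 10.2% of all genes): 8 higher and 5 lower. Palatal and buccal libraries did not overlap for 22 members (44.9%, against 28.3% of all genes). The members' median log2 fold change was 0.05, against 0.01 over all genes tested. In bulk RNA such as this, fewer cells of a type and less RNA per cell cannot be told apart. Of the 49, 44 were above the count filter's level of 0.334 CPM in all 10 libraries. The others were above it in fewer than 5 libraries of 1 side, and of these Unc5c, Nrp1 and Ephb2 passed the filter through the palatal side, where they were high.

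**Figure D1:**
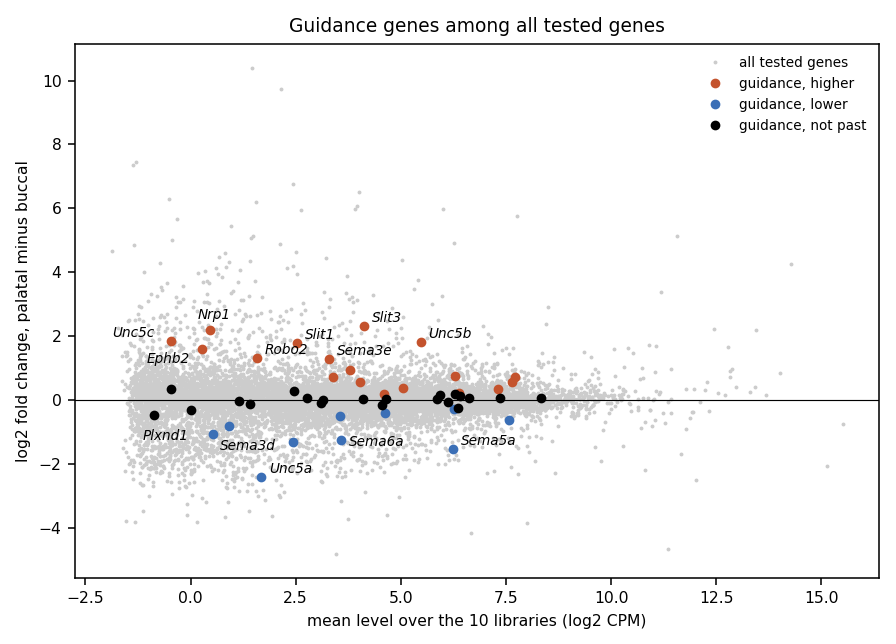
Log2 fold change (palatal minus buccal) against mean log2 CPM over the 10 libraries for all 14062 genes tested (grey) and the 49 guidance genes tested (orange higher, blue lower, black not past the adjusted p of 0.05). Slit3, Nrp1, Unc5c and Unc5b are the labelled genes farthest above the zero line among those higher in palatal, and Unc5a is the one farthest below it.

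The calls were then counted in each of the 6 families. Ephrins, Eph receptors, Slits and Robos had higher calls and 0 lower ones: 4 of 7 ephrins, 2 of 9 Eph receptors and 3 of 5 Slits and Robos. The 22.2% of Eph receptors called higher lay near the 18.7% of all genes. Semaphorins had 3 higher and 6 lower of 14, plexins and neuropilins 4 higher and 3 lower of 9, and netrins with Unc5 receptors 2 higher and 1 lower of 5. Over all genes tested, 18.7% were higher and 20.3% lower. Set out by role, 9 ligands were higher and 6 lower of 26 tested, and 9 receptors were higher and 4 lower of 23. These counts describe the families, and no test between families was made.

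**Figure D2:**
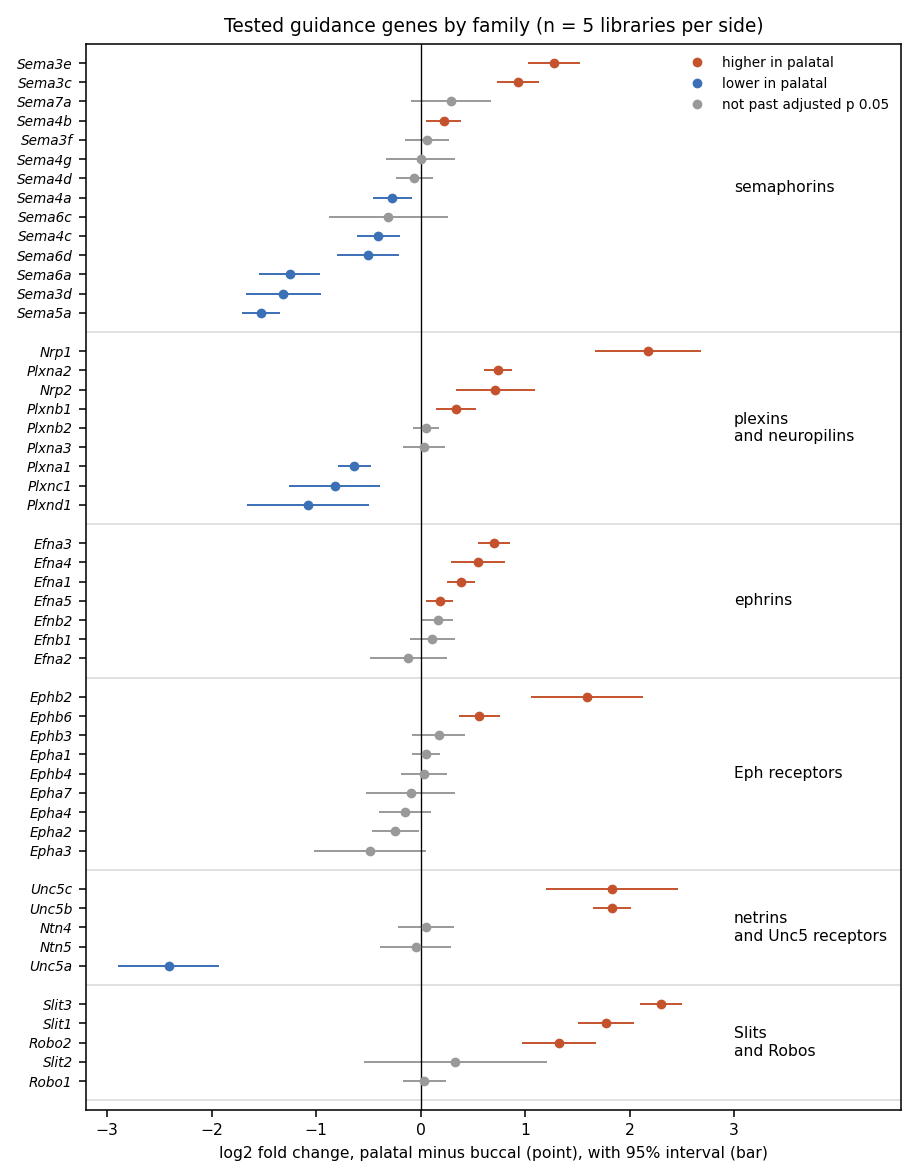
Log2 fold change (palatal minus buccal, point) with its 95% interval (bar) for each of the 49 guidance genes tested, grouped by family, from 5 libraries per side. All called ephrins, Eph receptors, Slits and Robos lie to the right of 0, while Sema5a, Sema3d, Sema6a, Plxnd1 and Unc5a lie farthest to the left.

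Slits are large secreted proteins with leucine-rich repeats that bind Robo receptors and repel axons and migrating cells. Slit3 and Slit1 were higher on the palatal side, Slit2 was at about 1 CPM or less on both sides, and Robo1 and Robo2 behaved differently from each other. Slit3 (ENSMUSG00000056427) was at 5.82, 6.08, 4.99, 6.36 and 6.26 CPM in buccal libraries 1 to 5 and at 31.8, 28.4, 32.7, 27.7 and 25.2 CPM in palatal libraries 1 to 5. Every palatal library was above every buccal one, a 4.94-fold difference (log2 fold change 2.30, SE 0.09, 95% interval 2.10 to 2.50, edgeR adjusted p 1.55e-10). Slit1 (ENSMUSG00000025020) was at 2.77, 2.86, 2.84, 2.18 and 2.32 CPM in buccal and 10.4, 9.1, 9.56, 7.29 and 7.87 CPM in palatal libraries. It too had no overlap between sides and was 3.42-fold higher in palatal (log2 1.77, SE 0.12, edgeR adjusted p 4.46e-08). Slit2 was at 0.322, 0.296, 0.967, 1.07 and 0.346 CPM in buccal and 0.364, 0.479, 0.903, 1.08 and 0.938 CPM in palatal libraries, with the lower and the higher values on both sides, and did not pass the test (log2 0.33, 95% interval -0.55 to 1.21, edgeR adjusted p 0.559).

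Among the receptors, Robo1, the member of this family with the highest level per exon length over the 10 libraries, was at 50.8, 67, 51.8, 49.9 and 66.2 CPM in buccal and 53.3, 57.6, 57.3, 60.2 and 65 CPM in palatal libraries. These values overlapped, and the difference did not pass the test (log2 0.04, 95% interval -0.16 to 0.24, edgeR adjusted p 0.792). Robo2 (ENSMUSG00000052516), a second receptor for the same ligands, was at 1.22, 1.64, 1.64, 1.69 and 2.13 CPM in buccal and 3.74, 3.38, 3.81, 5.06 and 5.02 CPM in palatal libraries. All palatal values were above all buccal ones, and Robo2 was 2.5-fold higher there (log2 1.32, SE 0.17, edgeR adjusted p 1.76e-05). Robo1 and Robo2 lie next to each other on chromosome 16, with no protein-coding gene between them in GENCODE M21 (build GRCm38, another build than the one named for these counts).

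Netrins are secreted, laminin-related cues. Unc5 receptors bind them, mediate repulsion, and have been described as dependence receptors that signal for cell death when no ligand is bound. Of the netrins, Ntn4 and Ntn5 were tested and did not pass, and Ntn1 and Ntn3 had too few counts to be tested, while 3 Unc5 receptors passed, in opposite directions. Ntn4, a netrin of basement membranes, was at 6.66 ± 0.689 CPM in buccal and 6.93 ± 1.29 CPM in palatal libraries (SD, n = 5 each), with a log2 fold change of 0.05 (95% interval -0.21 to 0.32). Ntn5 was at 2.21 ± 0.438 and 2.14 ± 0.264 CPM (SD, n = 5 each; log2 -0.05, 95% interval -0.39 to 0.29). Exons of Sec1, on the opposite strand, overlap 23.4% of the exon length of Ntn5 in GENCODE M21. Sec1 had 2 counts over all libraries, and how reads of the shared part were assigned is not known.

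Unc5b and Unc5a differed in opposite directions, so the 250 bases before their RefSeq start sites are shown for comparison, 5′ to 3′ on the gene's strand (GRCm38.p6; Unc5b at chr10:60831582-60831831 on the minus strand, Unc5a at chr13:54949161-54949410 on the plus strand). Capitals mark the only match to the motifs searched.
Unc5b: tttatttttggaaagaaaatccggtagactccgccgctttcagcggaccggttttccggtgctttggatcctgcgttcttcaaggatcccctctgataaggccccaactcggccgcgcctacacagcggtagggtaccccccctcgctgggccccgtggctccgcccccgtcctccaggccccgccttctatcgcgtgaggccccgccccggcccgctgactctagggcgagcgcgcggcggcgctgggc
Unc5a: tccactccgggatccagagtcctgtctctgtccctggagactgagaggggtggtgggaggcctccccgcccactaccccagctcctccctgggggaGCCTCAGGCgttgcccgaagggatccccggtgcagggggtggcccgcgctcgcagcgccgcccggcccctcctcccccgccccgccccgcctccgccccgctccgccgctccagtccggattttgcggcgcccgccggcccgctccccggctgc
The windows had a GC content of 66.8% (Unc5b) and 76.8% (Unc5a), against a median of 52.4% over all 32851 RefSeq windows, and held 27 and 25 CG dinucleotides. Both strands were searched for 4 motifs: TAATTA (a homeodomain core), CTTTGAA (Lef/Tcf), TGANTCA (AP-1) and GCCNNNGGC (Tfap2), which 4.84%, 4.46%, 6.75% and 13.7% of all windows hold. The Unc5a window held 1 GCCNNNGGC match, whose first letter lies 154 bases before the start, and the Unc5b window held none of the 4. Among called members with a window, GCCNNNGGC was matched in 4 of 17 higher and 4 of 8 lower ones, and each of the other motifs in at most 1 on either side. The fixed letters of GCCNNNGGC are all G or C, and the share over all windows takes no account of GC content. A difference in these shares was not tested. A match is a run of letters and not a measured binding site.

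Unc5b (ENSMUSG00000020099), known also from vessel patterning, was at 20.9, 17.7, 16.3, 21.2 and 21.3 CPM in buccal and 71.8, 74, 69.6, 67.5 and 62.8 CPM in palatal libraries. The lowest palatal library stood well above the highest buccal one, and Unc5b was 3.55-fold higher in palatal (log2 1.83, SE 0.08, 95% interval 1.65 to 2.01, edgeR adjusted p 6.84e-10). Unc5a (ENSMUSG00000025876) was at 7.66, 4.86, 5.45, 4.98 and 3.35 CPM in buccal and 0.596, 0.925, 1.1, 1.23 and 1.08 CPM in palatal libraries. Here every palatal library was below every buccal one, and Unc5a was 5.32-fold higher in buccal (log2 -2.41, SE 0.23, 95% interval -2.89 to -1.93, edgeR adjusted p 1.02e-06). Unc5c was low on both sides, at 0.0965, 0.296, 0.258, 0.518 and 0.293 CPM in buccal and 0.861, 1.15, 1.24, 1.12 and 0.83 CPM in palatal libraries, and was higher in palatal without overlap (log2 1.83, SE 0.29, edgeR adjusted p 0.000171). Only 1 buccal library reached the count filter's level of 0.334 CPM, so Unc5c passed the filter through the palatal side, where it was high. Where a gene had to reach 1 CPM in 5 libraries, Unc5c was not tested.

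**Figure D3:**
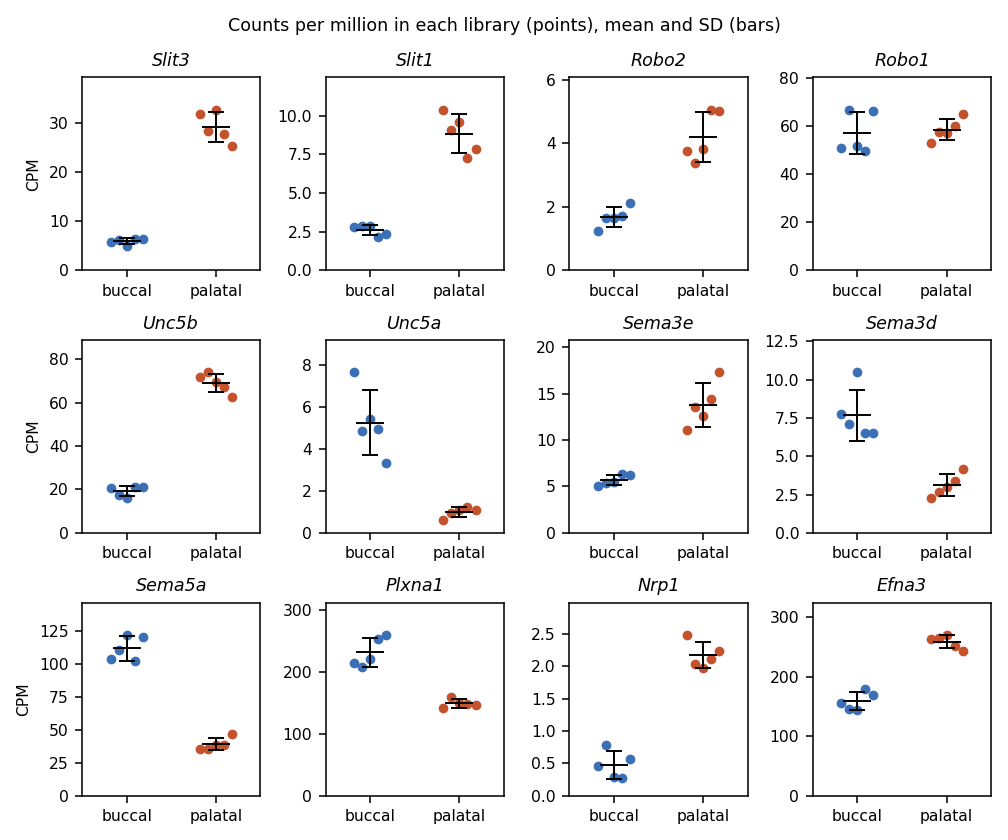
CPM in each library (points) with the mean and SD (bars) for 12 guidance genes, buccal left (blue) and palatal right (orange), 5 libraries each. The sides do not overlap for the 11 genes other than Robo1; Unc5a, Sema3d, Sema5a and Plxna1 are the ones with the higher values in buccal.

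Semaphorins share an extracellular sema domain and signal through plexins. Those of class 3 are secreted, and most of them need a neuropilin as co-receptor; classes 4 to 6 span the membrane, and Sema7a is anchored by lipid. Of the secreted members tested, Sema3e and Sema3c were higher in palatal, Sema3d was lower, and Sema3f did not pass the test. Sema3e (ENSMUSG00000063531), which binds Plxnd1 directly, was at 5.08, 5.35, 5.48, 6.36 and 6.18 CPM in buccal and 11, 13.6, 12.6, 14.5 and 17.3 CPM in palatal libraries. All palatal values were higher (log2 1.27, SE 0.12, 2.42-fold, edgeR adjusted p 8.24e-07). Sema3c was at 8.46, 11.3, 10.2, 8.19 and 9.13 CPM in buccal and 17.5, 19.7, 17.1, 19.1 and 16.9 CPM in palatal libraries, again without overlap (log2 0.93, SE 0.10, edgeR adjusted p 2.35e-06). Sema3d (ENSMUSG00000040254) went the other way, from 7.75, 7.09, 10.5, 6.53 and 6.5 CPM in buccal to 2.29, 2.65, 2.99, 3.39 and 4.15 CPM in palatal libraries. It was 2.49-fold higher in buccal, with no overlap (log2 -1.31, SE 0.17, edgeR adjusted p 2.18e-05). Sema3f, the semaphorin with the highest level per exon length, was at 96.3 ± 11.4 CPM in buccal and 101 ± 12.8 CPM in palatal libraries (SD, n = 5 each), with a log2 fold change of 0.06 (95% interval -0.15 to 0.27).

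Sema3e and Sema3d, which are of the same class and on the same chromosome, differed in opposite directions, and the 250 bases before their RefSeq start sites are shown side by side (GRCm38.p6, plus strand; Sema3e at chr5:14025026-14025275, Sema3d at chr5:12382916-12383165). Capitals mark a match to CTTTGAA, read on the opposite strand, whose first letter in the printed strand lies 119 bases before the start of Sema3e.
Sema3e: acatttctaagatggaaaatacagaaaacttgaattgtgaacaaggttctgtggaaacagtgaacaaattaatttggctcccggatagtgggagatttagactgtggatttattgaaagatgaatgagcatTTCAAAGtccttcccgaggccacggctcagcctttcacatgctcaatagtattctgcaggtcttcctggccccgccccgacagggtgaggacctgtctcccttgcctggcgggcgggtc
Sema3d: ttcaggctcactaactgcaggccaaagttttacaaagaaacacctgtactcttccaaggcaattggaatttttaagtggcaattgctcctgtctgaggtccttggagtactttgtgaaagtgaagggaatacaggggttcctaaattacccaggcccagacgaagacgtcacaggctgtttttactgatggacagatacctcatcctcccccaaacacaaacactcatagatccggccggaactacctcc
Both windows were poorer in GC than those of the Unc5 genes, at 48% for Sema3e with 7 CG dinucleotides and 46.8% for Sema3d with 4. The Sema3d window held none of the 4 motifs. Sema3d also neighbours Sema3a on chromosome 5, with no protein-coding gene between them, and Sema3a had too few counts to be tested.

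Of the 10 semaphorins tested outside class 3, 5 were lower, 1 was higher and 4 did not pass the test. Of all genes tested, 20.3% were lower and 18.7% higher. Sema5a (ENSMUSG00000022231), a transmembrane semaphorin with thrombospondin repeats, was at 104, 111, 122, 102 and 121 CPM in buccal and 35.4, 35.6, 38.7, 38.1 and 46.5 CPM in palatal libraries. The highest palatal library was far below the lowest buccal one, and Sema5a was 2.88-fold higher in buccal (log2 -1.52, SE 0.08, 95% interval -1.71 to -1.34, edgeR adjusted p 4.4e-09). Sema6a, a transmembrane ligand of A-type plexins, was at 13.4, 15.1, 17.7, 18.8 and 18.1 CPM in buccal and 5.33, 6.32, 6.38, 8.25 and 8.73 CPM in palatal libraries. It showed no overlap and was 2.38-fold higher in buccal (log2 -1.25, SE 0.14, edgeR adjusted p 4.1e-06).

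Differences of the other called members of these classes were smaller, and their sides overlapped. Sema6d fell by a log2 fold change of 0.50 (SE 0.14, edgeR adjusted p 0.0103), Sema4c by 0.40 (SE 0.10, edgeR adjusted p 0.00411) and Sema4a by 0.27 (SE 0.09, edgeR adjusted p 0.0225), while Sema4b rose by 0.22 (SE 0.08, edgeR adjusted p 0.0372). The call of Sema4a did not hold without buccal library 1 or 5 or palatal library 3, 4 or 5, and that of Sema4b without buccal library 2, 3 or 4 or palatal library 1, 2 or 5. Sema4d, Sema4g, Sema6c and Sema7a did not pass the test, with log2 fold changes of -0.06, 0.00, -0.31 and 0.29. The interval of Sema7a ran from -0.09 to 0.67, and that of Sema4d from -0.24 to 0.12.

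Plexins are the signalling receptors of semaphorins, with a GTPase-activating domain inside the cell, and neuropilins are co-receptors for class 3 semaphorins and for VEGF. Both neuropilins were higher in palatal, and the plexins were split. Nrp1 (ENSMUSG00000025810) was at 0.45, 0.788, 0.29, 0.276 and 0.559 CPM in buccal and 2.48, 2.04, 1.97, 2.11 and 2.24 CPM in palatal libraries. The sides did not overlap, and the log2 fold change was 2.18 (SE 0.24, 95% interval 1.67 to 2.68, edgeR adjusted p 4.23e-06), though the level was low on both sides. Nrp1 passed the count filter through the palatal side, where it was higher. Nrp2 was at 8.21, 8.8, 9.67, 4.01 and 8.73 CPM in buccal and 12.3, 12.5, 11.9, 13.3 and 15 CPM in palatal libraries, with buccal library 4 lowest of all. It too was higher in palatal (log2 0.72, SE 0.18, edgeR adjusted p 0.00556).

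Among A-type plexins, which pair with neuropilins, Plxna1 and Plxna2 moved in opposite directions. Plxna1 (ENSMUSG00000030084) was at 215, 208, 221, 254 and 259.7 CPM in buccal and 142, 160.1, 149, 148 and 147 CPM in palatal libraries. No values overlapped, and Plxna1 was 1.55-fold higher in buccal (log2 -0.63, SE 0.07, edgeR adjusted p 8.75e-06). Plxna2 was at 54.7, 64.5, 56.5, 59.9 and 55.6 CPM in buccal and 94, 98.9, 103, 95.7 and 94.5 CPM in palatal libraries. It was 1.67-fold higher in palatal, again without overlap (log2 0.74, SE 0.06, edgeR adjusted p 2.98e-07). Plxna3 did not pass the test (log2 0.03, 95% interval -0.17 to 0.23). Exons of the antisense gene Gm26811 overlap 10.7% of the exon length of Plxna1, and that gene had 105 counts over all libraries.

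Plxnb2 had the highest level per exon length of the plexins and did not pass the test, at 316 ± 9.05 CPM in buccal and 327 ± 12.5 CPM in palatal libraries (SD, n = 5 each; log2 0.05, 95% interval -0.07 to 0.17). Plxnb1, a receptor of Sema4d, rose by a log2 fold change of 0.34 (SE 0.09, edgeR adjusted p 0.00784), with overlapping sides. Plxnc1 and Plxnd1, both at low levels, fell. Plxnc1, a receptor of Sema7a, was at 2.7, 3.25, 1.8, 1.87 and 2 CPM in buccal and 1.59, 1.12, 1.58, 0.996 and 1.23 CPM in palatal libraries, with no overlap (log2 -0.82, SE 0.20, edgeR adjusted p 0.00471). Plxnd1 was at 2.12, 2.56, 0.967, 1.66 and 1.97 CPM in buccal and 0.729, 1.15, 0.48, 0.956 and 1.12 CPM in palatal libraries, where buccal library 3 lay within the palatal range (log2 -1.08, SE 0.27, edgeR adjusted p 0.00569).

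Set beside their textbook partners, ligand and receptor did not always differ in the same direction. The ligand Sema3e was higher (1.27) while its receptor Plxnd1 was lower (-1.08). For Sema4d, the ligand did not pass the test (-0.06) and Plxnb1 was higher (0.34), and for Sema7a the ligand did not pass (0.29) and Plxnc1 was lower (-0.82). The ligand Sema6d and its receptor Plxna1 were both lower (-0.50 and -0.63). Sema6a, a ligand of A-type plexins, was lower too (-1.25), while of the other A-type plexins tested Plxna2 was higher (0.74) and Plxna3 did not pass (0.03). Slit1, Slit3 and the receptor Robo2 were higher (1.77, 2.30 and 1.32), while Robo1, the receptor with the higher level, did not pass (0.04). Not every receptor of a ligand is set out here. These log2 fold changes come from the same libraries, so the pairs are shown side by side without a test of their relation.

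Ephrins are membrane-bound ligands, lipid-anchored in class A and transmembrane in class B, that bind Eph receptors on touching cells and can signal in both directions. All 4 ephrins that passed the test were of class A and higher in palatal. Efna3 (ENSMUSG00000028039), the ephrin with the highest level per exon length, was at 156, 145, 144, 180.1 and 169 CPM in buccal and 264, 265, 270.4, 252 and 244 CPM in palatal libraries. Its palatal values were all above its buccal ones, a 1.63-fold difference (log2 0.71, SE 0.07, edgeR adjusted p 2.35e-06). Efna1, a ligand of Epha2 in epithelia, was at 28.8, 27.4, 28.1, 30.6 and 29.5 CPM in buccal and 37.2, 39.4, 38.4, 39.3 and 34.2 CPM in palatal libraries. The difference was 1.31-fold with no overlap (log2 0.38, SE 0.06, edgeR adjusted p 0.000179). Efna4 was at 14.6, 10.9, 11.1, 15 and 14.6 CPM in buccal and 20.6, 22.8, 18.7, 19.8 and 15 CPM in palatal libraries (log2 0.55, SE 0.12, edgeR adjusted p 0.00211), with palatal library 5 close to the buccal maximum.

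Efna5 showed the smallest called difference, 1.13-fold (log2 0.18, SE 0.06, edgeR adjusted p 0.0251), from 23, 22.8, 22.1, 21.9 and 22.9 CPM in buccal to 25.4, 24.4, 27.1, 26.4 and 24.5 CPM in palatal libraries. Its call did not hold with library totals in place of TMM, without the count filter, or without buccal library 4 or palatal library 3. Efna2, Efnb1 and Efnb2 did not pass the test, with log2 fold changes of -0.12, 0.11 and 0.16. Efnb2 (95% interval 0.02 to 0.31, edgeR adjusted p 0.0741) was called higher without palatal library 2. The interval of Efnb1, the class B ephrin with the highest level per exon length, was -0.10 to 0.32. Efna1, Efna3 and Efna4 lie in a row on chromosome 3 with no protein-coding gene between them, and antisense genes overlap 14.1% of the exon length of Efna3 and 10.5% of that of Efna4.

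Eph receptors form a large family of receptor tyrosine kinases. Of the 9 tested, 2 passed (22.2%, against 38.9% of all genes), namely Ephb6, whose kinase domain is inactive, and Ephb2. Epha1 and Epha2, which are known from epithelia, were among the 7 that did not. Ephb6 (ENSMUSG00000029869) was at 171, 135, 147, 170.2 and 178 CPM in buccal and 242, 279, 224, 218 and 221 CPM in palatal libraries. All palatal values were higher, by 1.48-fold over the means (log2 0.56, SE 0.09, edgeR adjusted p 0.000188). Ephb2 was at 0.74, 0.69, 0.483, 0.242 and 0.666 CPM in buccal and 1.23, 1.91, 1.83, 2.11 and 1.55 CPM in palatal libraries. At this low level the sides did not overlap either (log2 1.60, SE 0.25, edgeR adjusted p 0.000139). Ephb2 passed the count filter through the palatal side, where it was higher.

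Epha1 was at 162 ± 10.8 CPM in buccal and 167 ± 6.56 CPM in palatal libraries (SD, n = 5 each; log2 0.05, 95% interval -0.08 to 0.19). Exons of Zyx, on the opposite strand, overlap 6.01% of its exon length, and Zyx had 13855 counts over all libraries. Epha2 had a log2 fold change of -0.24 (95% interval -0.46 to -0.02, edgeR adjusted p 0.0798), and passed the test with the replicate number as a block and without buccal library 4 or palatal library 2. Log2 fold changes of Epha3, Epha4, Epha7, Ephb3 and Ephb4 were -0.48, -0.15, -0.10, 0.17 and 0.03, none past the test by edgeR with n = 5 per side.

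Levels per exon length (mean CPM per kb) allow the members of a family to be set against each other. Among Slits and Robos, Robo1 made up 69.1% of the family's summed level in buccal and 35.1% in palatal libraries, and Slit3 19.4% and 47.4%. In CPM per kb, Robo1 was at 3.46 and 3.55 and Slit3 at 0.973 and 4.81, so that by this measure their order was turned around between the sides. That turn rests on the annotated exon lengths, 16.51 kb for Robo1 and 6.067 kb for Slit3. In mean CPM, Robo1 was above Slit3 both in buccal (57.1 against 5.90) and in palatal libraries (58.7 against 29.2). Unc5b rose from 43.2% to 77.7% of the netrin and Unc5 level and Unc5a went from 17.5% to 1.67%, while Ntn4 went from 24.7% to 13% and Ntn5 from 13.9% to 6.79%. Plxna1 went from 29.1% to 19% of the plexin and neuropilin level and Plxnb1 from 16.7% to 21.3%, below Plxnb2 at 46.5% and 48.8%. Efna3 held 51% and 58.7% of the ephrin level. Among Eph receptors Ephb6 and Epha1 were close in buccal (34.5% and 33.4%) and further apart in palatal libraries (43.8% and 29.7%). Semaphorins were led by Sema3f (23.8% and 26.5%), Sema4a (20% and 17.7%) and Sema4b (17.6% and 21.9%), and Sema5a went from 7.68% to 2.85%. Shares in a family are tied to each other, so a share can fall where the level of that gene did not.

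**Figure D4:**
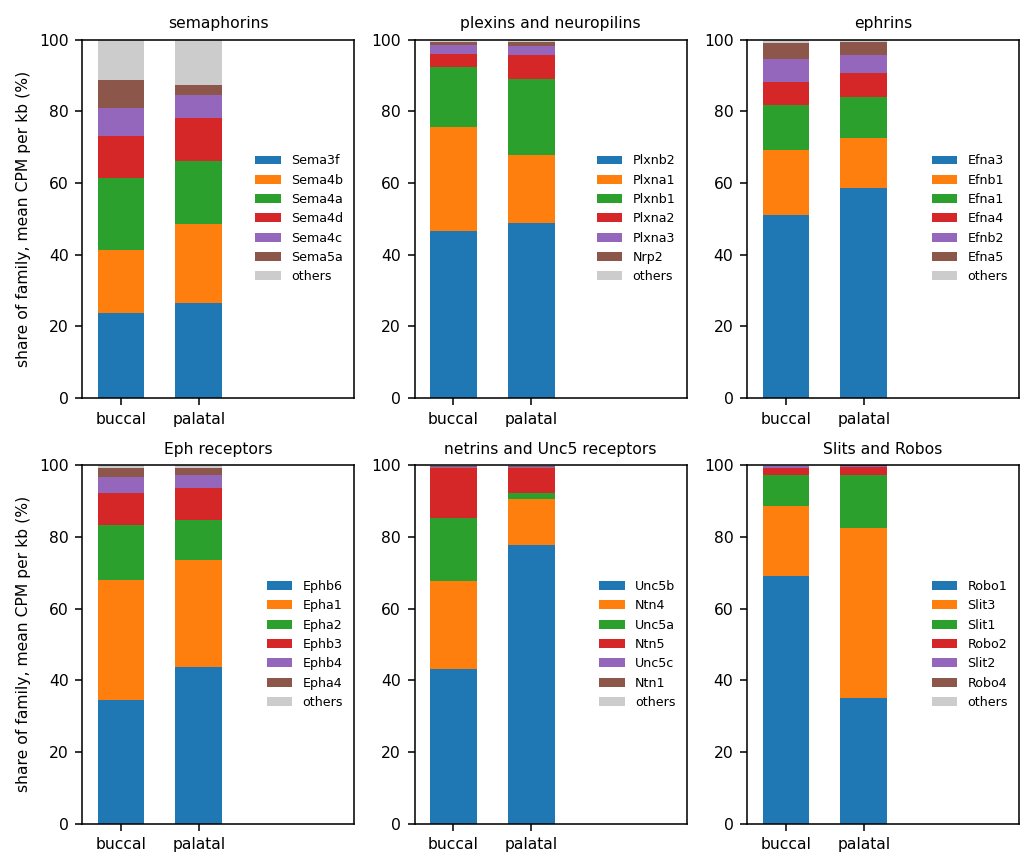
Share of each family's summed mean CPM per kb of exon (%) held by its members in buccal and palatal libraries (means of 5 each; the 6 members with the highest level are coloured, the rest grey). Unc5b takes up more of its family in palatal, and by CPM per kb, though not by CPM, Slit3 takes the place of Robo1 as the largest share of Slits and Robos.

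The 19 members that were not tested had few counts: summed over 5 libraries, at most 48 in buccal and 62 in palatal. Epha6 and Sema5b had 0 counts in all 10 libraries, where 3 counts would be 0.00971 CPM. Epha5, Epha8, Plxnb3, Robo3, Sema3g and Unc5d had at most 6 counts on a side. For Epha10 (34 buccal and 31 palatal counts), Ephb1 (28 and 23), Efnb3 (40 and 43), Plxna4 (48 and 34), Sema3b (45 and 62), Sema4f (19 and 8), Ntn3 (16 and 6) and Robo4, a Robo of vessels (11 and 4), the summed counts are a description only. Sema3a, which collapses axonal growth cones, had 1 buccal and 22 palatal counts, a ratio of 23.4 (exact 95% interval 3.78 to 964). Sema6b had 18 buccal and 3 palatal counts (ratio 0.177, 0.0334 to 0.606), and Ntn1, the best known netrin, 25 and 50 (ratio 2.12, 1.29 to 3.58). These 3 were singled out after their values were seen, and the intervals cover counting error only. Without the count filter, edgeR called Sema3a higher and Sema6b lower.

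The co-receptors and effectors of these pathways were followed in 4 lists, to be read against the 38.9% of all genes that were called (18.7% higher and 20.3% lower). Of the semaphorin co-receptors and effectors, 25 of 30 were tested: 9 were higher, 10 lower and 6 not past (76% called), with a median log2 fold change of -0.14. Dpysl3, a collapsin response mediator, went from 5.53 ± 0.909 to 22.5 ± 2.86 CPM (SD, n = 5 each; log2 2.03, edgeR adjusted p 8.77e-09), whereas its relatives Dpysl2 and Dpysl5 fell by 1.19 and 1.54 on the log2 scale (edgeR adjusted p 0.000155 and 5.65e-05). Rnd1, a small GTPase that binds plexins, rose by 3.08 (SE 0.30, edgeR adjusted p 1.34e-06), from a mean of 0.161 to 1.41 CPM. Every buccal library lay below the count filter's level of 0.334 CPM, so Rnd1 passed the filter through the palatal side, where it was high. Of the Eph and ephrin effectors, 17 of the 19 with values were tested: 5 were higher, 2 lower and 10 not past (median 0.09). The 41.2% called lay near the 38.9% of all genes. Ngef (ephexin, an Eph-bound exchange factor) rose by 0.87 and Sipa1l1 by 0.34, while Grip1 fell by 0.89 and Vav3 by 0.29 (edgeR adjusted p 2.1e-05, 0.00246, 9.32e-07 and 0.00997).

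Of the netrin co-receptors, further ligands and effectors, 17 of 23 were tested: 5 were higher, 4 lower and 8 not past (52.9% called, against 38.9% of all genes; median 0.06). Ntng1, among the higher ones, lay below 0.334 CPM in every buccal library and passed the count filter through the palatal side, where it was high. Neo1 (neogenin), a netrin receptor, went from 51.6 ± 2.06 to 89.6 ± 4.89 CPM (SD, n = 5 each; log2 0.80, edgeR adjusted p 8.57e-08). Its relative Dcc, the classical netrin receptor, had 1 count in buccal and 0 in palatal libraries and was not tested. Lrrc4 rose by 0.96, Ablim3 fell by 1.77 and the adaptor Bcar1 fell by 0.70 on the log2 scale (edgeR adjusted p 0.000183, 1.1e-07 and 1.03e-05). Of the Slit and Robo co-factors and effectors, 13 of 15 were tested: 3 were higher, 2 lower and 8 not past (median 0.16); the 38.5% called lay near the 38.9% of all genes. The actin regulator Enah (Mena) went from 96.6 ± 13.3 to 217 ± 15.3 CPM (SD, n = 5 each; log2 1.17, edgeR adjusted p 1.43e-07), and its relative Evl fell by 0.76 (edgeR adjusted p 2.12e-05). The Slit-Robo GTPase-activating proteins were split, with Srgap3 up by 0.94 and Srgap2 down (log2 -0.38; edgeR adjusted p 1.26e-05 and 0.000843).

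Markers of other cells that the sheets could hold in part differed between the sides, and their part in the results above was not tested. Their calls are to be read against all genes tested, of which 18.7% were higher and 20.3% lower. Among the called markers, Fbn1 and Atoh1 lay below the count filter's level of 0.334 CPM in every buccal library. Cd2 and Nkg7 lay below it in every palatal library. These markers passed the filter through the side where they were high. The summed fibroblast markers were at 21.2 to 25.9 CPM in buccal and 104 to 115 CPM in palatal libraries, with 4 of 8 tested markers higher and 0 lower. Dcn (decorin) went from 6.61 to 73.3 CPM and Col6a1 from 7.49 to 13.7 CPM (means of 5), while the fibrillar collagens Col1a1 and Col3a1 were at 1.87 and 1.31 CPM in buccal and 1.48 and 1.27 CPM in palatal libraries and did not pass the test. Not tested were Fap (36 buccal and 15 palatal counts), Pdgfra (36 and 25), Lum (11 and 16) and Dpt (27 and 26). The neuron sum was 11.1 to 15.3 CPM in buccal and 45.7 to 55.2 CPM in palatal libraries. Tubb3 alone was called (1 of 3 tested, 11.4 to 48 CPM), Uchl1 was at 1.23 and 1.53 CPM, and Nefm was at 0 in buccal libraries. Endothelial markers summed to 5.47 to 9.26 CPM in buccal and 4.88 to 9.36 CPM in palatal libraries, with 1 higher and 1 lower of 3 tested. Pecam1 was at 4.1 and 4.04 CPM, and Vwf at 1.36 and 0.699 CPM.

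Macrophage, Langerhans and dendritic cell markers summed to 166 to 275 CPM in buccal and 65.7 to 86.2 CPM in palatal libraries, with 1 higher and 9 lower of 10 tested. The antigen presentation genes Cd74 and H2-Aa led them, at 121 and 39.2 CPM in buccal and 33.5 and 11.2 CPM in palatal libraries. Itgam was the marker called higher, at 1.63 CPM in buccal and 10.6 CPM in palatal libraries (log2 2.70, edgeR adjusted p 3.11e-08). T and innate lymphoid cell markers were 1 higher and 7 lower of 8, with sums of 23.1 to 30.3 and 21.9 to 31.3 CPM, Thy1 at 16.2 and 21.7 CPM and Il7r at 2.7 and 0.951 CPM. Thy1 made up most of that sum and was the marker called higher. Merkel cell markers were 5 higher and 1 lower of 6, with sums of 88.6 to 113 and 93 to 102 CPM. Sox2 made up most of that sum and was lower (97.8 and 84.9 CPM), and Krt8 was higher (0.486 and 4.26 CPM).

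Pericyte and smooth muscle markers summed to 22.7 to 34.9 and 23.8 to 39 CPM (0 higher and 1 lower of 3; Cspg4 22.8 and 30.5 CPM, Acta2 2.66 and 1.75 CPM), and the Schwann cell markers to 44.6 to 50.6 and 38.1 to 50.4 CPM. None of the 4 Schwann cell markers tested passed by edgeR; Mbp and Prx led them at 44.7 and 1.73 CPM in buccal, and Sox10 and Cdh19 were at 0 in palatal and Mag at 0 in buccal libraries. Melanocyte sums were 0.773 to 1.67 and 1.2 to 1.85 CPM, led by Mitf and Pmel, with Tyrp1 at 0 on both sides, Tyr at 0 in palatal and 0 of 1 tested called. Taste and salivary markers summed to 1.35 to 2.21 and 1.82 to 3.61 CPM (0 of 1 tested called), led by Tas1r3 and Gnat3, with Prol1 at 0 on both sides and Gnat3 at 0 in buccal. Those other than Tas1r3 had too few counts to be tested. Summed over the buccal and the palatal libraries, Gnat3 had 0 and 71 counts, Trpm5 1 and 35, and Aqp5 8 and 45. Muc19 had 11 and 45, Car4 3 and 6, and Bpifa2 9 and 3. Skeletal muscle markers summed to 1.74 to 10 and 0.83 to 4.14 CPM, led by Myh1 and Acta1, with 0 higher and 2 lower of 4. Of the 12 keratinocyte markers, 6 were higher and 2 lower, the latter being Krt13 (58477 and 34511 CPM) and Krt4 (57984 and 13853 CPM), the 2 with the highest level.

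**Figure D5:**
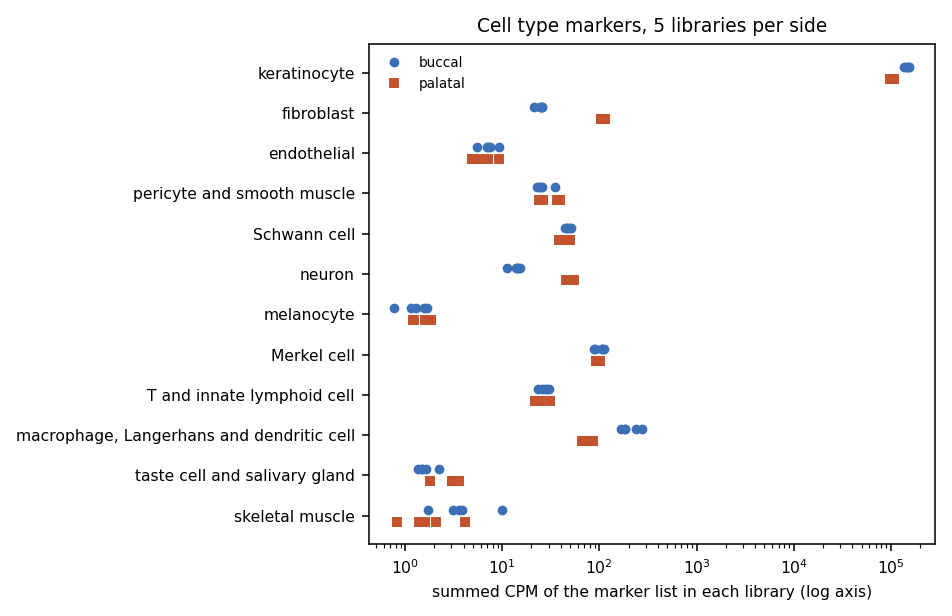
Summed CPM of each cell type marker list in each library (log axis), buccal as blue circles and palatal as orange squares, 5 libraries per side. Fibroblast and neuron sums are higher in every palatal library, keratinocyte and macrophage, Langerhans and dendritic cell sums are lower, and the other lists overlap. Most of the sum is Sox2 for Merkel cells (5 markers higher, 1 lower) and Thy1 for T and innate lymphoid cells (1 higher, 7 lower). Of the 12 keratinocyte markers, 6 were higher, and Krt4 and Krt13 were the 2 lower.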

How the data were processed

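Bulk RNA-seq of 10 epithelial libraries was analysed, 5 buccal and 5 palatal by the tissue label. The deposited table lists 55414 genes with the authors' raw counts in each library, per the file headers, and beside them the authors' normalized values, a signal equal to that count divided by 1 factor per library, which served an alternative only. Tools and build, per the submitters' processing notes, were TopHat2 2.1.1, HTSeq 2.01, cutadapt 2.10, DESeq2 1.36.0 and GRCm39. How reads were assigned and whether strand was used is not given in the sources used here, so reads of genes that overlap on either strand may not be told apart. Blank genes (6250) were left out, and 0 columns belong to other samples.

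Counts were fitted with edgeR 4.0.16 in R 4.3.3 (TMM scaling, filterByExpr with a minimum count of 10, robust quasi-likelihood test, side as the only term) over all 14062 genes passing the filter, with Benjamini-Hochberg adjustment over all of them. SEs were derived from the log2 fold change and F, and 95% intervals use the t distribution of the fit. Depth was 25868777 to 37234192 counts, of which genes in the test made up at least 99.92%. Libraries of a side differed beyond sampling noise (chi-square per degree of freedom 8.29 to 64), so none was taken for a library deposited more than once; this does not show that they are separate biological samples. Exon lengths came from GENCODE M21 (GRCm38) and were used for CPM per kb only, and promoter windows came from RefSeq (GRCm38.p6), where 59 of the 68 members have one. Summed counts of untested members were compared with exact intervals, which cover counting error only. Scripts were tested on simulated data.

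Named members were, per family and direction, up to 4 called ones with the largest log2 fold change, non-overlapping sides and a mean of 1 CPM or more where higher, the 2 with the highest level per length, and the uncalled one with the highest CPM; others are given more briefly. From each pathway list up to 2 genes per direction with the smallest p are named, and from each marker list the 2 with the highest CPM; others named were chosen after their values were seen. The members and lists were chosen with earlier results of these data known. As alternatives, scaling (library totals, RLE, upper quartile), filter, tool (DESeq2 1.42.0, limma 3.58.1), a replicate block, omission of single libraries, a stricter adjusted p (0.01) and a minimum fold (1.5) were tried.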

Additional observations from a re-analysis of the deposited data

Results flagged for a closer look

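In 9 of 130 groups of 5 libraries, the highest or lowest library stood apart from the other 4 by Dixon's criterion, which chance meets in about 1 in 20 groups. Among the guidance genes, Nrp2 was at 4.01 CPM in buccal library 4, against 8.21 to 9.67 CPM in the other buccal libraries. In buccal library 1, Ephb4 was at 30.1 CPM, against 22.7 to 24.1, and Efnb2 at 51 CPM, against 57.2 to 59.4. Plxnb2 was at 331 CPM in buccal library 5, against 308 to 314, and at 349 CPM in palatal library 2, against 319 to 323.

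Buccal library 1 also stood apart in 2 marker sums: fibroblast markers summed to 21.2 CPM, against 24.7 to 25.9 in the other buccal libraries, and pericyte and smooth muscle markers to 34.9 CPM, against 22.7 to 25.6. The T and innate lymphoid cell sum was 31.3 CPM in palatal library 1, against 21.9 to 24.4, and the skeletal muscle sum was 10.01 CPM in buccal library 5, against 1.74 to 3.88. Their part in the results was not tested. Nrp2 kept its call without buccal library 4.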

How the results depend on the processing

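Over 21 alternative fits the log2 fold changes of the members tested gave 988 values with the same call, 31 that lost the call and 6 that gained it, and no called value changed direction in any of these fits. At an adjusted p of 0.01 in the same fit, 4 calls were lost (Efna5, Sema4a, Sema4b and Sema6d). Against a fold of 1.5 in place of any difference, 1491 genes passed, 10 members higher and 4 lower, with 1 Eph receptor higher, 0 ephrins higher, 2 plexins and neuropilins higher and 0 lower, and 3 semaphorins lower. With each library left out in turn, 4916 to 5399 genes passed, 16 to 18 members were higher and 9 to 11 lower; ephrins higher were 3 to 5, Eph receptors lower 0 to 1, semaphorins higher 2 to 3 and lower 5 to 6, and the other family counts did not change. With number 2 left out on both sides, 1 Eph receptor (Epha2) was lower, Efnb2 was called higher and the call of Sema4b was lost. With at least 1 CPM asked for in 5 libraries, 1 netrin or Unc5 receptor was higher, since Unc5c was no longer tested. With library totals, 2184 genes were higher and 3260 lower, and the calls of Efna5 and Sema4b were lost.

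The labels do not say that the replicate numbers pair the libraries, and the numbers were not taken as pairs because not every pair correlated above 0.1: deviations of same-numbered libraries correlated at 0.33, 0.06, -0.02, 0.21 and 0.06, and 3 of 5 buccal and 2 of 5 palatal libraries correlated best with their own number, a hint from the data and not from the design. With the replicate number as a block, 5518 genes passed, 18 members higher and 11 lower, of which 1 Eph receptor (Epha2) was lower.

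Depth limits the 19 untested members and the low ones (Unc5c, Slit2, Nrp1, Ephb2, Epha3), where few counts per library lie behind each value. The labels give no animals, the counting mode is not known, lengths come from another build, and epithelial sheets hold other cells whose part was not tested.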
